A study of Mus musculus with 12 samples.

Results

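The non-IAP ERVK internal sequences were the repeat entries of class LTR/ERVK whose name carried the tag -int and did not begin with IAP. A methylation level was given for 1462 such entries in at least 1 of the 12 libraries, and for 715 in all 12. These 715 entries, spread over 26 subfamily names, are described below. They made up 715 of 34707 repeat entries and of 133311 features of every kind with a level in all 12 libraries. An entry is named by its subfamily and a range of bases, read here as the stretch of the subfamily's consensus that the copy covers, with no position in the genome. Copies with the same subfamily and range share 1 entry, and entries of 1 subfamily overlap in the consensus, so they are not independent of each other. Since an entry has no position, no sequence is shown.

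ERVK elements are class II endogenous retroviruses, remnants of germline infections by retroviruses of the beta type. The internal part of such an element carries the gag, pro and pol genes, or what is left of them, between long terminal repeats (LTRs) that hold the promoter. In the mouse, ERVK copies are silenced by DNA methylation and, in embryonic stem cells, by histone H3 lysine 9 methylation placed through TRIM28 and SETDB1. Primordial germ cells (PGCs) lose most of their DNA methylation while they migrate to and settle in the gonad, and the intracisternal A particles (IAPs), also ERVK elements, are known for keeping part of theirs.

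Reduced representation bisulfite sequencing (RRBS), which reads CpG methylation in the CpG-rich fragments left by a restriction digest, was done on mouse cells of strain C57BL6 in 6 groups of 2 libraries. ESC were female embryonic stem cells from fertilized blastocysts. pESC were parthenogenetic stem cells from activated oocytes, so that all chromosomes of pESC were maternal. E9.5 PGC and E12.5 PGC were germ cells of female embryos at embryonic day 9.5 or 12.5, isolated with antibodies to SSEA1 and, for flow cytometry, CD61. ESC-PGCLC and pESC-PGCLC were PGC-like cells induced from the stem cells by 2 days with bFGF, activin A and knockout serum replacement, and 4 days with BMP4, SCF, EGF and LIF, and sorted for both antigens. The methods describe lines kept in serum and LIF and moved to a medium with kinase inhibitors before induction. The study describes its RRBS data as 2 biological replicates. The labels do not say whether the 2 libraries of a group came from separate cultures or embryos. The p-values measure only the spread between these libraries.

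Each level is the authors' fraction of methylated cytosines in CpG sites, given below in percent. The depth behind a level is unknown, since no read counts were given, and no counting error can be attached to it. Some levels equal ratios of small whole numbers, such as 71.4286% and 27.2727% in E12.5 PGC for MMERVK9E_I-int bases 3431 to 6134. Few reads would give such values, but the number of reads cannot be read from them. Of 8580 levels of the 715 entries, 6 were exactly 0% and 22 exactly 100%, in 19 entries. The ESC libraries stood apart from each other: replicate 1 was higher than replicate 2 by a mean of 8.52 points over the 715 entries, and 40.6% of entries differed by 10 points or more, against 5.03% between the E9.5 PGC libraries. Counts of called members that rest on ESC are therefore also given without each of these libraries.

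The internal entries were most methylated in E9.5 PGC and least in E12.5 PGC. Their mean level was 75.6% and 75.1% in the E9.5 PGC libraries, 66.3% in each ESC-PGCLC library, 62.7% and 62.3% in pESC-PGCLC, 64.5% and 56.0% in ESC, 61.3% and 58.7% in pESC, and 55.4% and 56.0% in E12.5 PGC. The group means were 75.4% ± 0.34 (SD, n = 2), 66.3% ± 0.039, 62.5% ± 0.33, 60.2% ± 6.02, 60.03% ± 1.86 and 55.7% ± 0.42 in that order. E9.5 PGC, ESC-PGCLC and pESC-PGCLC did not overlap. The ESC libraries enclosed the range of pESC and of pESC-PGCLC, and ESC replicate 2 lay within the E12.5 PGC range, so the order of these 4 groups is not beyond the spread of ESC. pESC stayed above E12.5 PGC and below pESC-PGCLC in both libraries.

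IAP internal entries, 525 in number, were higher than the non-IAP internal entries in each of the 12 libraries, but by an amount that changed with the cell type. The mean of the non-IAP entries minus that of the IAP entries was -2.27 points ± 0.10 (SD, n = 2) in E9.5 PGC, -5.44 ± 0.29 in E12.5 PGC, -4.75 ± 0.025 in ESC-PGCLC, -5.39 ± 0.15 in pESC-PGCLC, -8.60 ± 1.10 in pESC and -9.16 ± 2.49 in ESC. The gap was thus smallest in E9.5 PGC, the most methylated group. It was largest in the stem cells and not in E12.5 PGC, the least methylated group. Against the 2614 non-IAP ERVK entries without -int, which are mainly LTRs but also hold some internal parts under other names, the members were higher in each library, by 9.49 to 17.8 points. That gap was 9.603 ± 0.15 points in E9.5 PGC, 11.4 ± 0.087 in E12.5 PGC and 17.1 ± 1.02 in ESC. No p-value is attached to these means over entries, since an exact permutation test of 2 libraries against 2 cannot go below p = 0.333, two-sided.

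**Figure D1:**
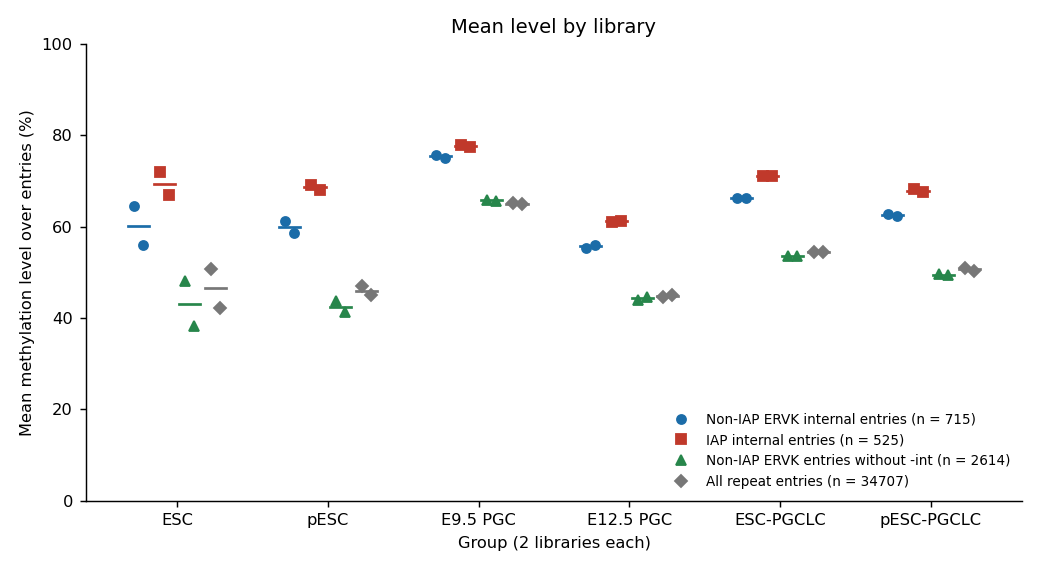
Mean methylation level (%, vertical axis) in each library of the 6 groups (horizontal axis) for 4 sets of entries. Symbols are libraries and short lines are group means. The 715 non-IAP internal entries (circles) lie between the 525 IAP internal entries and the 2614 ERVK entries without -int in every library, and all sets are highest in E9.5 PGC.

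Most members belonged to RLTR10-int and MMERVK10C-int, the internal parts of elements flanked by RLTR10 LTRs; MMERVK10C elements include copies that keep retroviral reading frames. RLTR10-int gave 214 entries and MMERVK10C-int 177. RLTR10-int had 68.7% and 59.2% in ESC, 65.5% and 62.5% in pESC, 78.4% and 78.3% in E9.5 PGC, 59.1% and 59.95% in E12.5 PGC, 70.2% in each ESC-PGCLC library, and 66.2% and 66.0% in pESC-PGCLC. MMERVK10C-int had 69.7% and 63.1% in ESC, 67.6% and 65.5% in pESC, 77.1% and 76.4% in E9.5 PGC, 58.2% and 58.3% in E12.5 PGC, 69.7% and 69.3% in ESC-PGCLC, and 65.9% and 65.3% in pESC-PGCLC. In both subfamilies the E9.5 PGC libraries were above all others. In MMERVK10C-int both E12.5 PGC libraries were below all others, while in RLTR10-int ESC replicate 2 lay between them. With the 24 entries of MMERVK10D3_I-int, this family held 415 of the 715 members.

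The ETn/MusD family held 97 members. MusD elements (ETnERV) carry gag, pro and pol, and the early transposon ETn (MMETn), which has lost these genes, is mobilized by MusD proteins. MMETn-int, with 38 entries, was the highest of the 6 subfamilies with 30 or more entries in both PGC stages and both PGC-like groups. It had 84.2% and 84.1% in E9.5 PGC, 65.5% and 66.7% in E12.5 PGC, 75.9% and 76.9% in ESC-PGCLC, 72.5% and 71.7% in pESC-PGCLC, 70.6% and 62.2% in ESC, and 67.3% and 64.1% in pESC. ETnERV-int, with 36 entries, had 75.9% and 76.0% in E9.5 PGC, 53.6% and 55.7% in E12.5 PGC, 65.2% and 66.0% in ESC-PGCLC, 62.1% and 61.9% in pESC-PGCLC, 62.5% and 56.3% in ESC, and 59.6% and 58.6% in pESC. MMETn-int was above ETnERV-int in each library, and the 2 subfamilies overlapped only in ESC, where the replicates lay far apart. ETnERV2-int (14 entries) had means of 72.2% ± 0.43 in E9.5 PGC and 53.4% ± 0.013 in E12.5 PGC, and ETnERV3-int (9 entries) 75.1% ± 2.67 and 54.7% ± 0.44 (SD, n = 2 libraries).

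The MMERVK9 family held 108 members. MMERVK9C_I-int, with 71 entries, had 71.8% in each E9.5 PGC library, 51.7% and 52.2% in E12.5 PGC, 59.8% and 60.9% in ESC-PGCLC, 57.8% and 56.1% in pESC-PGCLC, 59.95% and 48.0% in ESC, and 55.5% and 49.8% in pESC. It was the least methylated of the 6 large subfamilies in E9.5 PGC, and its ESC libraries lay on either side of E12.5 PGC and of pESC-PGCLC. MMERVK9E_I-int, with 37 entries, had 77.0% and 75.1% in E9.5 PGC, 54.8% and 54.1% in E12.5 PGC, 69.1% and 67.8% in ESC-PGCLC, 63.2% and 63.1% in pESC-PGCLC, 64.1% and 56.1% in ESC, and 59.3% and 58.4% in pESC. Here ESC-PGCLC was above both stem cell groups in each library.

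MMTV-int, from the mouse mammary tumour virus, gave 1 entry, bases 1 to 7253. It had 86.9% and 86.6% in E9.5 PGC, the highest subfamily value of any group, 58.5% and 57.7% in E12.5 PGC, 68.7% and 69.7% in ESC-PGCLC, 66.9% and 66.7% in pESC-PGCLC, 74.1% and 58.5% in ESC, and 70.7% and 59.5% in pESC. Its stem cell replicates differed by more than 10 points in both ESC and pESC, replicate 1 being the higher.

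The MYSERV and MurERV4 names gave 21 members, and the remaining RLTR names 46. MurERV4_19-int (5 entries) had 79.4% and 73.4% in E9.5 PGC against 39.6% and 43.8% in E12.5 PGC and 40.7% and 24.9% in ESC. MYSERV-int (3 entries) had 57.8% and 50.2%, 29.2% and 25.6%, and 29.4% and 23.8% in the same groups. RLTR44-int (13 entries) was the subfamily with the smallest difference between E9.5 PGC and ESC, 6.76 points, and MurERV4-int (1 entry) had the largest, 43.9 points. Subfamily means ran from 43.8% to 86.8% in E9.5 PGC and from 26.6% to 66.4% in ESC.

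**Figure D2:**
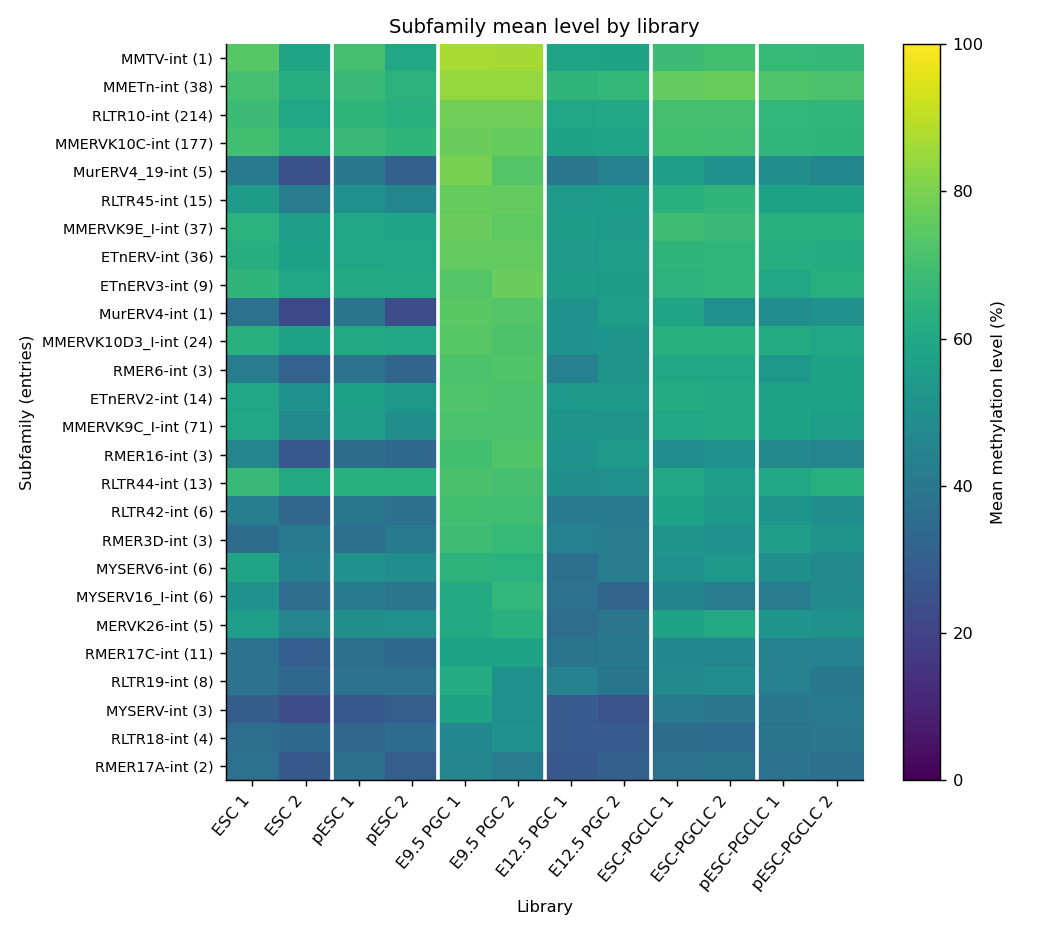
Mean methylation level (%, colour) of the 26 subfamilies (rows, number of entries in brackets, ordered by E9.5 PGC level) in the 12 libraries (columns). The E9.5 PGC columns are the brightest in each row, and MurERV4_19-int and MurERV4-int stand out among the upper rows by their dark ESC and pESC cells.

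Between E9.5 and E12.5, 609 of the 715 members fell and none rose (limma on log odds, Benjamini-Hochberg adjusted p under 0.05 and a difference of at least 10 points). Of all 137202 features tested, 49.6% fell and 0.035% rose. The members' share of 85.2% was near the 86.5% of all repeat entries, 84.2% of IAP internal entries and 84.7% of ERVK entries without -int. The median difference was -19.6 points over the members, -17.1 over IAP internal entries, -19.5 over all repeat entries and -11.5 over all features. By family, 359 of 415 entries fell in MMERVK10C/RLTR10, 83 of 97 in ETn/MusD, 86 of 108 in MMERVK9, 20 of 21 in MYSERV/MurERV4, 36 of 46 among the other RLTR names, and MMTV-int also fell, from a mean of 86.8% to 58.1% (adjusted p = 7.47e-05, limma). Both E9.5 PGC libraries were above both E12.5 PGC libraries in the mean of each of the 26 subfamilies.

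The share of the E9.5 level that was left at E12.5 differed between subfamilies, from 50.8% in MYSERV-int to 78.5% in MMETn-int. It was 73.9% over all members, 78.8% over IAP internal entries and 67.3% over ERVK entries without -int. In the large subfamilies it was 76.0% for RLTR10-int, 75.9% for MMERVK10C-int, 72.3% for MMERVK9C_I-int, 72.0% for ETnERV-int and 71.6% for MMERVK9E_I-int. MMETn-int thus kept about the IAP share, and the MYSERV/MurERV4 names together kept 57.1%. These shares are descriptions and were not tested.

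The largest falls were in entries whose replicates lay far apart in at least 1 of the 2 stages, and the reads behind these levels may be few. MurERV4_19-int bases 4881 to 5174 fell by 63.1 points, from 100% and 71.4% to 8.82% and 36.4% (adjusted p = 0.0269, limma), a call that was lost without E9.5 PGC replicate 1 (adjusted p = 0.058) or without E12.5 PGC replicate 1 (0.14). MMERVK9E_I-int bases 3431 to 6134 fell by 50.6 points, from 100% in both E9.5 PGC libraries to 71.4% and 27.3% (adjusted p = 9.88e-04), while both ESC libraries were also at 100% and pESC had 47.1% and 72.7%. MYSERV16_I-int bases 1637 to 2098 fell by 48.7 points, from 84.1% and 100% to 47.4% and 39.3% (adjusted p = 0.0175), with 35.7% and 45.0% in ESC-PGCLC and 40.5% and 53.4% in pESC-PGCLC. Its call was lost without either E12.5 PGC library (0.061 and 0.078).

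ESC were below E9.5 PGC in most members. Of the 715, 397 were called, 393 lower in ESC and 4 higher. That is 55.5%, against 42.9% of all 133311 features (42.1% lower and 0.892% higher), 61.1% of all repeat entries, 73.1% of ERVK entries without -int and 27.8% of IAP internal entries. The median difference, ESC minus E9.5 PGC, was -11.8 points over the members and -7.49 over all features. Lower entries numbered 217 of 415 in MMERVK10C/RLTR10, 56 of 97 in ETn/MusD and 59 of 108 in MMERVK9. The count was 501 without ESC replicate 1 and 242 without ESC replicate 2, and 498 and 234 of these were lower in ESC.

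A small set of members was nearly unmethylated in the stem cells and methylated in germ cells. RMER6-int bases 2518 to 2582 had 4.27% and 3.23% in ESC, 5.43% and 1.79% in pESC, 84.1% and 85.5% in E9.5 PGC, 53.5% and 69.5% in E12.5 PGC, 66.1% and 62.6% in ESC-PGCLC, and 65.4% and 69.0% in pESC-PGCLC. MMERVK9C_I-int bases 25 to 239 had 5.86% and 4.96% in ESC, 6.33% and 4.82% in pESC, 86.3% and 83.6% in E9.5 PGC, 52.4% and 38.1% in E12.5 PGC, 68.0% and 63.2% in ESC-PGCLC, and 50.4% and 48.5% in pESC-PGCLC. RLTR10-int bases 300 to 996 had 4.44% and 3.62% in ESC, 2.90% and 2.94% in pESC, 79.1% and 81.7% in E9.5 PGC, 63.7% and 55.4% in E12.5 PGC, 59.3% and 63.0% in ESC-PGCLC, and 45.9% and 55.3% in pESC-PGCLC. In all 3 entries the stem cell libraries did not come near any germ cell or PGC-like library. From E9.5 PGC to ESC these 3 fell by 81.0, 79.5 and 76.3 points (adjusted p = 1.98e-06, 3.36e-07 and 1.96e-07, limma), the largest differences among the members in that comparison.

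In all, 25 members were under 20% in each of the 4 stem cell libraries, and 13 of these were over 50% in both E9.5 PGC libraries. These limits were set after the levels were seen, and what follows is a description. Shares of other features within these limits are not given here. Over all 133311 features the median level was 12.2% in ESC and 34.5% in E9.5 PGC, so low stem cell levels are not particular to these members. The 13 came from 8 subfamilies, 3 each from MMERVK9C_I-int and RLTR10-int, 2 from RMER17C-int and 1 each from ETnERV2-int, MMERVK9E_I-int, MYSERV-int, RLTR42-int and RMER6-int. Their mean was 8.61% ± 1.39 in ESC, 8.85% ± 0.50 in pESC, 73.5% ± 0.66 in E9.5 PGC, 45.7% ± 1.96 in E12.5 PGC, 58.2% ± 0.65 in ESC-PGCLC and 49.6% ± 0.38 in pESC-PGCLC (SD, n = 2 libraries). Another 4 of the 25 were under 10% in all 12 libraries.

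**Figure D3:**
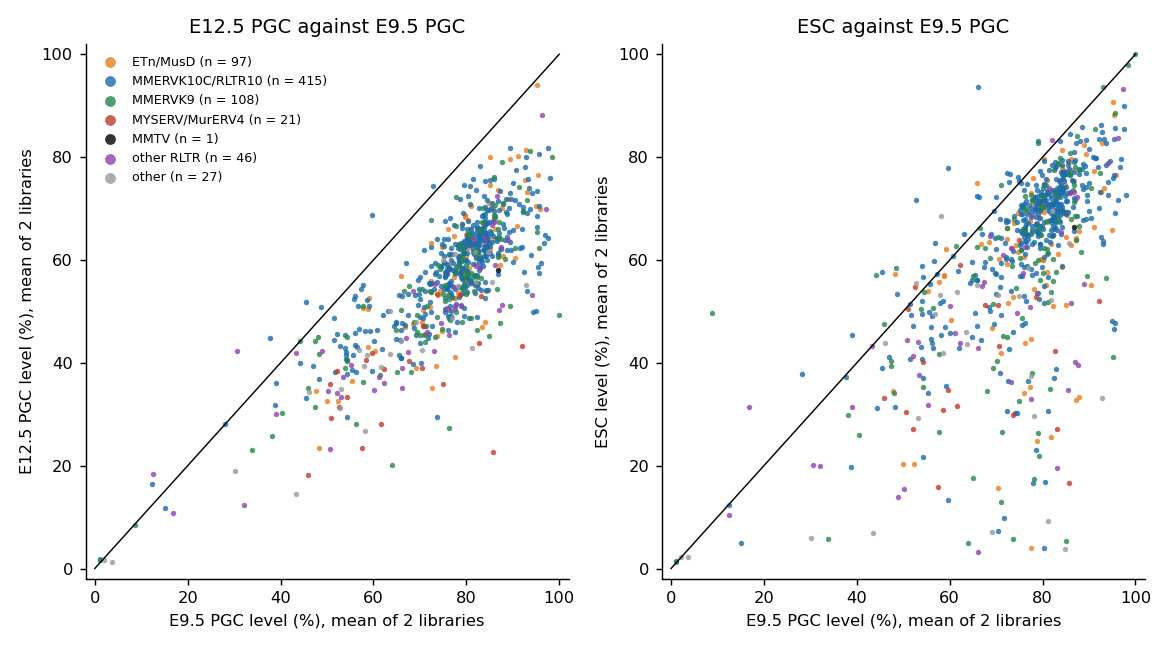
Level of each of the 715 members (%, mean of 2 libraries) in E12.5 PGC (left) and ESC (right), each on the vertical axis, against E9.5 PGC on the horizontal axis, coloured by family, with a line at equal levels. In E12.5 PGC nearly all entries lie in a band below the line, while in ESC most lie closer to it and a tail of entries reaches the bottom of the plot at high E9.5 PGC levels.

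The few members that were higher in ESC than in E9.5 PGC showed the opposite order. MMERVK9E_I-int bases 2265 to 3912 had 51.9% and 47.6% in ESC, 46.8% and 51.1% in pESC, 13.6% and 3.85% in E9.5 PGC, 3.12% and 13.9% in E12.5 PGC, 36.5% and 34.2% in ESC-PGCLC, and 36.6% and 38.7% in pESC-PGCLC. RLTR10-int bases 1 to 81 had 98.0% and 89.1% in ESC, 83.5% and 85.8% in pESC, 69.3% and 62.8% in E9.5 PGC, 53.7% and 52.2% in E12.5 PGC, 68.9% and 66.5% in ESC-PGCLC, and 62.8% and 69.3% in pESC-PGCLC. MMERVK10C-int bases 5436 to 5566 had 73.1% and 70.3% in ESC, 72.3% and 70.5% in pESC, 51.8% and 53.7% in E9.5 PGC, 44.9% and 41.7% in E12.5 PGC, 46.9% and 55.5% in ESC-PGCLC, and 52.7% and 48.3% in pESC-PGCLC. In each of them the 4 stem cell libraries were above the 4 PGC libraries. The differences, ESC minus E9.5 PGC, were 41.0, 27.5 and 19.0 points (adjusted p = 1.84e-03, 1.32e-03 and 1.18e-03, limma).

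Against E12.5 PGC, 214 members were called in ESC, 163 higher and 51 lower, which is 29.9% against 17.2% of all features. Among all features 6.99% were higher and 10.2% lower, among all repeat entries 15% and 10.9%, among IAP internal entries 36.8% and 1.71%, and among ERVK entries without -int 10.8% and 15.3%. The median difference was 7.17 points over the members, 8.50 over IAP internal entries, 4.33 over all repeat entries, 1.04 over ERVK entries without -int and -0.12 over all features. The excess of higher calls rested on ESC replicate 1: without it 168 members were called, 83 higher and 85 lower, and without ESC replicate 2 there were 379, with 332 higher and 47 lower. At a least difference of 20 points the split was also turned, with 31 higher and 40 lower. The higher entries numbered 106 of 415 in MMERVK10C/RLTR10, 22 of 97 in ETn/MusD and 23 of 108 in MMERVK9. The count was 96 without E12.5 PGC replicate 1 and 98 without E12.5 PGC replicate 2. RMER6-int bases 2518 to 2582, RLTR10-int bases 300 to 996 and MMERVK9E_I-int bases 1 to 288 were the furthest below E12.5 PGC, with differences of -57.7, -55.5 and -43.2 points (adjusted p = 3.43e-05, 3.34e-06 and 4.66e-06, limma). MMERVK9E_I-int bases 3431 to 6134, MERVK26-int bases 6568 to 6897 and MMERVK9E_I-int bases 2265 to 3912 were the furthest above it, by 50.6, 41.8 and 41.3 points (4.31e-04, 8.69e-03 and 3.97e-03). MERVK26-int bases 6568 to 6897 had 79.5% and 57.5% in ESC, 79.5% and 69.6% in pESC, 54.0% and 62.3% in E9.5 PGC, 31.7% and 21.7% in E12.5 PGC, 68.5% and 50.0% in ESC-PGCLC, and 60.5% and 47.7% in pESC-PGCLC. Its call was lost without 2 of the 12 libraries in turn (adjusted p = 0.05003 and 0.0687).

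The level also differed with where in the consensus an entry began, a description made after the levels were seen. The 358 members that began within the first 50 bases had a mean of 63.9% in ESC and 77.9% in E9.5 PGC. The 357 that began later had 56.6% and 72.8%. This pooled difference mixes position with subfamily, since early entries were 0% of MYSERV-int and RLTR42-int but 78.9% of MMETn-int. In RLTR10-int the 137 early entries were above the 77 later ones in all 12 libraries, by 6.07 to 14.6 points, and the gap was 13.99 points ± 0.88 in ESC and 6.24 ± 0.24 in E9.5 PGC (SD, n = 2). ETnERV-int had early entries above later ones in all 12 libraries as well, by 15.9 ± 2.74 points in ESC, 6.22 ± 0.42 in E9.5 PGC and 3.68 ± 0.99 in E12.5 PGC.

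MMERVK9C_I-int showed the opposite in the stem cells. Its 30 early entries were below its 41 later ones by a mean early-minus-late gap of -10.1 points ± 0.96 in ESC and -11.4 ± 1.64 in pESC, while the gap was 2.23 ± 0.70 in E9.5 PGC and -0.033 ± 0.094 in ESC-PGCLC. MMERVK9E_I-int had a gap of -7.05 ± 1.60 points in ESC and 3.73 ± 2.43 in E9.5 PGC. In MMERVK10C-int the gap was 2.29 to 4.83 points in all 12 libraries. Within RLTR10-int, 35 entries that began between bases 250 and 500 had 50.1% in ESC, 49.9% in pESC, 75.7% in E9.5 PGC and 54.8% in E12.5 PGC, against 68.7%, 68.6%, 80.2% and 62.2% for the 142 that began between bases 1 and 60. Whether length, CpG content or depth differed between these stretches was not tested.

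**Figure D4:**
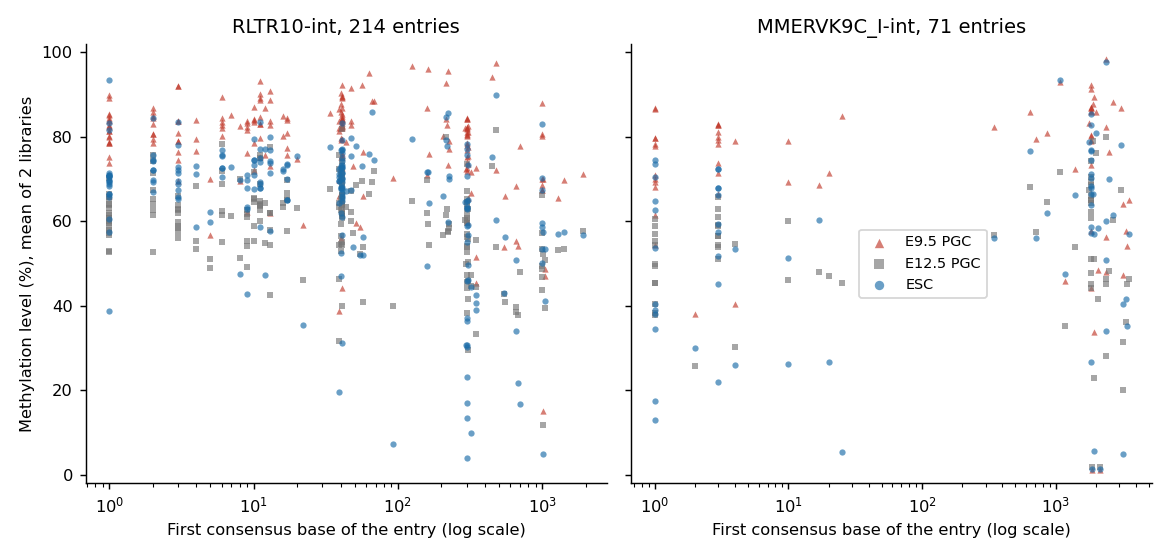
Level of each entry (%, mean of 2 libraries) against the first consensus base it covers (log axis) for RLTR10-int (214 entries) and MMERVK9C_I-int (71 entries), in ESC, E9.5 PGC and E12.5 PGC. In RLTR10-int the ESC values spread downward at entries that begin near base 300, and in MMERVK9C_I-int low ESC values are frequent among entries that begin in the first 50 bases.

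The PGC-like cells lay between the 2 PGC stages on average. In ESC-PGCLC 258 members differed from E9.5 PGC, 256 lower and 2 higher. That is 36.1%, against 29.8% of all features (29.6% lower and 0.168% higher), 43.6% of all repeat entries, 15.6% of IAP internal entries and 56.1% of ERVK entries without -int. In pESC-PGCLC 438 differed from E9.5 PGC, 437 lower and 1 higher. That is 61.3%, against 40.3% of all features (40.2% lower and 0.127% higher), 65% of all repeat entries, 42.9% of IAP internal entries and 73.9% of ERVK entries without -int. The median differences were -8.60 and -11.9 points. The family counts of lower entries were 121 and 250 of 415 in MMERVK10C/RLTR10, 36 and 54 of 97 in ETn/MusD and 47 and 71 of 108 in MMERVK9. Both comparisons share the E9.5 PGC libraries.

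Against E12.5 PGC, 364 members differed in ESC-PGCLC, 358 higher and 6 lower. That is 50.9%, against 22.8% of all features (22.2% higher and 0.523% lower), 39.4% of all repeat entries, 48.2% of IAP internal entries and 38.4% of ERVK entries without -int. By family, 227 of 415 were higher in MMERVK10C/RLTR10, 50 of 97 in ETn/MusD, 46 of 108 in MMERVK9 and 5 of 21 in MYSERV/MurERV4. In pESC-PGCLC 108 differed from E12.5 PGC, 103 higher and 5 lower. That is 15.1%, against 7.1% of all features (6.81% higher and 0.287% lower), 12% of all repeat entries, 17.9% of IAP internal entries and 12% of ERVK entries without -int. The median differences were 11.1 and 7.14 points. The pESC-PGCLC count moved with every library. limma called 0 members without E12.5 PGC replicate 1 or without either pESC-PGCLC replicate, with 310, 309 and 323 at an unadjusted p under 0.05, and 13 without E12.5 PGC replicate 2, 47 and 41 without E9.5 PGC replicate 1 or 2, and 66 and 65 without ESC-PGCLC replicate 1 or 2. In a fit of all 12 libraries it was 2, and 67 with the replicate number as a block.

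A few members went against this order. RLTR10-int bases 1923 to 1989 had 100% and 95.5% in ESC-PGCLC, above the other 10 libraries, which ranged from 55.3% to 72.0%, and the differences from E9.5 PGC and E12.5 PGC were 26.6 and 40.1 points (adjusted p = 6.42e-03 and 5.64e-03, limma). RLTR10-int bases 302 to 994 had 43.2% and 35.6% in ESC-PGCLC and 42.9% and 30.8% in pESC-PGCLC against 65.2% and 54.9% in E12.5 PGC and 75% and 82.0% in E9.5 PGC. RMER16-int bases 152 to 390 had 36.5% and 41.7% in ESC-PGCLC and 41.3% and 35.3% in pESC-PGCLC against 56.7% and 65.6% in E12.5 PGC. These last 2 were below both PGC stages in each PGC-like library. Against E12.5 PGC the ESC-PGCLC differences were -20.6 and -22.0 points (0.0462 and 0.0257, limma adjusted p), and the calls were lost without 6 and 3 of the 8 libraries in turn, up to adjusted p = 0.20 and 0.11. Within this order, RLTR44-int bases 874 to 931 had 91.9% and 88.9% in ESC-PGCLC and 77.9% and 83.6% in pESC-PGCLC, against 52.7% and 53.7% in E12.5 PGC and 95.5% and 92.6% in E9.5 PGC.

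MMERVK9C_I-int bases 3184 to 4764 had 23.5% and 32.0% in ESC-PGCLC and 20.4% and 22.6% in pESC-PGCLC, close to the 20.8% and 19.5% of E12.5 PGC and far from the 50.0% and 78.0% of E9.5 PGC, with 3.70% and 6.19% in ESC. RLTR10-int bases 304 to 386 had 58.0% and 61.1% in ESC-PGCLC and 45.9% and 57.1% in pESC-PGCLC against 25.6% and 33.3% in E12.5 PGC and 74.3% and 72.8% in E9.5 PGC. MMERVK10C-int bases 2553 to 7572 had 65.5% and 66.2% in pESC-PGCLC, 58.2% and 64.9% in ESC-PGCLC, 37.7% and 51.3% in E12.5 PGC and 67.1% and 64.4% in E9.5 PGC. The last 2 were above E12.5 PGC in pESC-PGCLC by 22.0 and 21.4 points (adjusted p = 0.0316 and 0.0396, limma), calls that were lost without 8 and 7 of the 8 libraries in turn, up to 0.12 and 0.15. Below E12.5 PGC in pESC-PGCLC were ETnERV-int bases 5113 to 6513, with 46.7% and 54.2% against 71.4% and 68.8%, and RLTR45-int bases 1010 to 1177, with 2.86% and 4.76% against 17.2% and 19.4%. Both of these calls (0.0467 and 0.0344) were lost without 6 of the 8 libraries in turn, up to 0.19 and 0.15.

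Few members were called on induction from the stem cells, at shares below those of all features, while most subfamily means were higher. From ESC to ESC-PGCLC 81 members changed, 76 higher and 5 lower. That is 11.3%, against 14.6% of all features (13.7% higher and 0.899% lower), 15.5% of all repeat entries, 4.38% of IAP internal entries and 20.9% of ERVK entries without -int. From pESC to pESC-PGCLC 47 changed, 43 higher and 4 lower. That is 6.57%, against 9.66% of all features (8.91% higher and 0.746% lower), 10.2% of all repeat entries, 1.71% of IAP internal entries and 14.3% of ERVK entries without -int. The median differences were 3.29 and -0.038 points. The first count was 188 without ESC replicate 1 (183 higher and 5 lower), 81 without ESC replicate 2 (62 higher and 19 lower), 53 without ESC-PGCLC replicate 1 and 45 without ESC-PGCLC replicate 2. The second was 84 without either ESC library, 28 and 30 without pESC replicate 1 or 2, and 16 and 22 without pESC-PGCLC replicate 1 or 2.

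Of 26 subfamily means, 24 were higher in ESC-PGCLC than in ESC, 17 of them without overlap of the libraries. In pESC-PGCLC 22 were above pESC, 19 of them without overlap. The mean over all repeat entries also rose without overlap. It went from 50.7% and 42.2% in ESC to 54.4% and 54.5% in ESC-PGCLC, and from 47.0% and 45.1% in pESC to 51.0% and 50.4% in pESC-PGCLC. Of the 26 subfamilies 8 had under 5 entries, while MMERVK10C-int, with 177, had a lower mean in pESC-PGCLC (65.6%) than in pESC (66.5%). Among the entries, the largest rises began at low stem cell levels, as a rise of that size must. MMERVK9E_I-int bases 1 to 288 rose from 6.17% and 5.39% in ESC to 72.9% and 75.6% in ESC-PGCLC, and from 3.61% and 2.98% in pESC to 58.4% and 59.9% in pESC-PGCLC. These rises were 68.5 and 55.9 points (adjusted p = 7.45e-05 and 1.63e-04, limma). RMER6-int bases 2518 to 2582 rose by 60.6 and 63.6 points, and MMERVK9C_I-int bases 25 to 239 by 60.2 points from ESC and 43.9 points from pESC. RLTR10-int bases 302 to 848 rose from 28.1% and 20.4% in pESC to 72.6% and 73.3% in pESC-PGCLC, by 48.7 points (adjusted p = 0.0118), a call lost without pESC replicate 2 or either pESC-PGCLC library (0.068 to 0.080). Among the falls, RLTR10-int bases 1 to 81 fell by 25.8 points and MMERVK10C-int bases 5436 to 5566 by 20.5 points from ESC (adjusted p = 0.0143 and 0.0108), and both calls were lost without ESC-PGCLC replicate 1 (0.058 and 0.093), that of RLTR10-int also without ESC-PGCLC replicate 2 (0.078). From pESC, MMERVK10C-int bases 1 to 78 fell by 14.4 points, from 58.7% and 56.8% to 45.3% and 41.5%, a call (0.0357) lost without 6 of the 8 libraries in turn, up to 0.28.

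A test of 4 libraries did not tell the parthenogenetic and the fertilized stem cells apart, in these sequences or in any other feature. The study reported higher methylation in pESC at paternally expressed genes such as Snrpn and Mest. With ESC replicates far apart, 0 calls do not show that ESC and pESC are alike. limma called 0 of the 715 members and 0% of all 148012 features between pESC and ESC. At an unadjusted p under 0.05 (limma) there were 4 members, which is 0.559%, against 1.39% of all features. The lowest adjusted p of any member was 0.0995. The count was also 0 without ESC replicate 1 or without ESC replicate 2, with 18 and 33 at an unadjusted p under 0.05 (limma). Of 19 members that differed by 10 points or more, 10 were higher and 9 lower in pESC. Leaving out pESC replicate 1 or pESC replicate 2 gave 2 calls each, both lower.

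Between the induced cells limma called 3 members, 1 higher and 2 lower in pESC-PGCLC. That is 0.42%, against 0.0948% of all features (0.0445% higher and 0.0503% lower). MMETn-int bases 2 to 2385 had 84.7% and 81.0% in ESC-PGCLC and 62.0% and 60.97% in pESC-PGCLC (adjusted p = 0.0423, limma). RLTR10-int bases 302 to 857 had 83.9% and 84.8% in ESC-PGCLC and 71.9% and 69.8% in pESC-PGCLC (0.0451). RLTR44-int bases 816 to 1332 was the higher one, by 52.6 points (0.0156). All 3 calls were lost with the replicate number as a block (0.08 to 0.13), and without 6, 8 and 5 of the 8 libraries in turn. Beyond these, the members were a little lower in pESC-PGCLC: the median difference was -3.77 points over the members, -3.55 over all repeat entries, -3.21 over IAP internal entries, -4.07 over ERVK entries without -int and -0.95 over all features, and 22 of 26 subfamily means were lower, 19 of them in both libraries. The count was 21 with an offset of 0.1 and 23 on untransformed levels, 1 in a fit of all 12 libraries and 0 with the replicate number as a block (215 at an unadjusted p under 0.05). It was 8 without ESC-PGCLC replicate 1, 1 without either E12.5 PGC library, and 0 without either E9.5 PGC or either pESC-PGCLC library (153 to 198 at an unadjusted p under 0.05).

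The effect of induction differed between the 2 origins in 1 member by limma's interaction test, which is 0.14% against 0.0365% of all features (0.0183% in each direction). The listed level of RLTR44-int bases 816 to 1332 was 0% in each ESC-PGCLC library. It was 40.0% and 46.6% in ESC, 32.4% and 48.6% in pESC, 45.1% and 41.4% in E9.5 PGC, 50.7% and 33.3% in E12.5 PGC and 43.5% and 61.8% in pESC-PGCLC. The ESC-PGCLC libraries were thus apart from the other 10. The interaction was 55.5 points (adjusted p = 0.0279). The call was lost with an offset of 0.1 (0.49), on untransformed levels (0.54), in a fit of repeat entries only (0.0598) and without any 1 library except ESC-PGCLC replicate 1 (0.068 to 0.16), and the number of reads behind the exact zeros is unknown. The count of members was 4 without ESC-PGCLC replicate 1. It was 0 by limma without either ESC, either pESC or either pESC-PGCLC library, with 15 to 160 at an unadjusted p under 0.05, against 31 with all libraries. An overlapping entry, bases 811 to 1332, had 6.67% and 18.4% in ESC-PGCLC and 12.5% and 7.58% in pESC-PGCLC, with 23.8% and 38.8% in ESC and 32.7% and 46.2% in pESC.

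LTR entries with a matching name allowed internal parts to be set beside the kind of part that holds the promoter. Entries have no position, so these LTRs need not flank the same copies. MMERVK9E_I-int was above RLTR9E (26 entries) in each library, by 31.9 points ± 3.02 in ESC, 30.9 ± 1.80 in pESC, 13.04 ± 0.99 in E9.5 PGC, 10.8 ± 0.72 in E12.5 PGC, 19.6 ± 0.56 in ESC-PGCLC and 19.0 ± 0.74 in pESC-PGCLC (SD, n = 2). RLTR9E had a mean of 28.3% in ESC and 63.0% in E9.5 PGC. The stem cell libraries and the PGC libraries did not overlap in this gap.

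MMERVK10C-int and RLTR10C (32 entries) were close in the germ line and apart in the stem cells. The internal level minus the LTR level was 8.77 points ± 3.46 in ESC, 9.46 ± 0.018 in pESC, -1.99 ± 0.17 in E9.5 PGC, 0.046 ± 0.051 in E12.5 PGC, 1.33 ± 0.13 in ESC-PGCLC and 1.599 ± 0.70 in pESC-PGCLC. RLTR10-int against 84 entries of other RLTR10 LTRs had 7.93 ± 3.89 points in ESC, 9.07 ± 0.58 in pESC and -3.58 ± 0.094 in E9.5 PGC. Against the 7 entries of RLTRETN_Mm, the LTR of the ETn/MusD family, MMETn-int was higher in each library, by 19.2 ± 1.99 points in ESC and 12.8 ± 0.36 in E9.5 PGC, and ETnERV-int by 12.2 ± 0.40 and 4.58 ± 0.46. RLTR45-int was lower than RLTR45 (4 entries) in each library, and RLTR18-int lower than its LTRs in 11 of 12. MMTV-int and RLTR42-int had no LTR entry of a matching name with a level in all 12 libraries. These gaps are between means of entries of 1 name and carry no test.

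**Figure D5:**
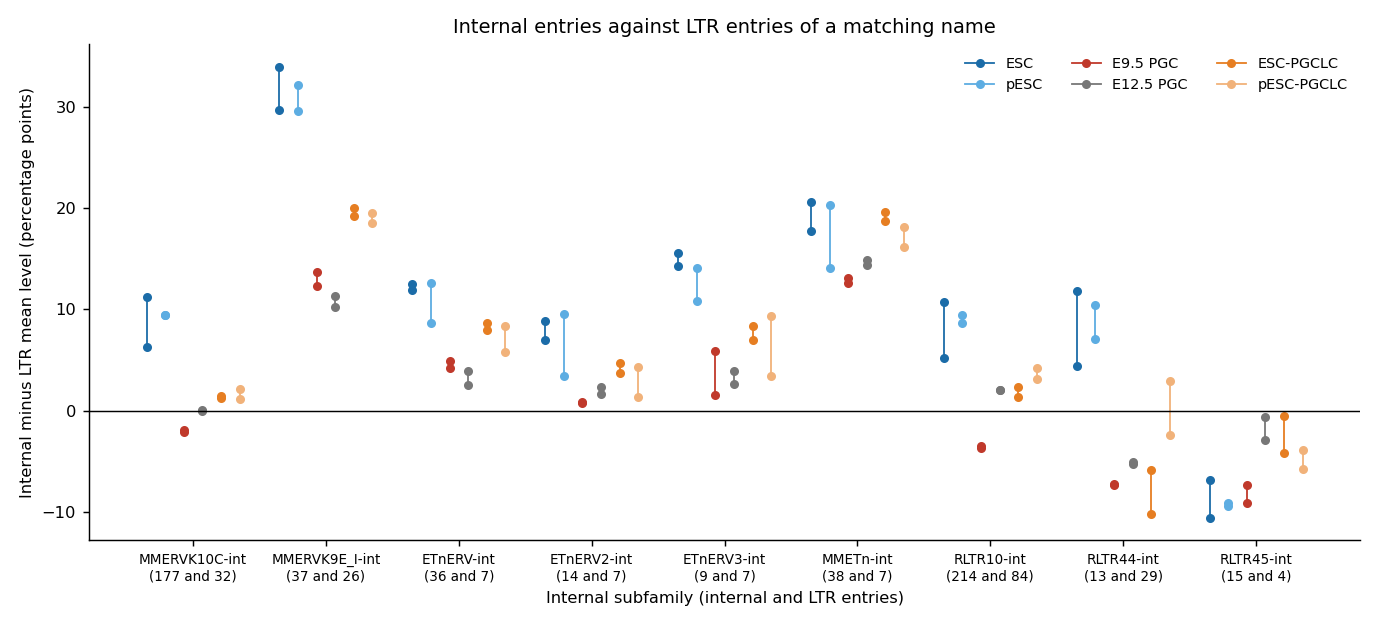
Mean level of internal entries minus mean level of LTR entries of a matching name (percentage points, vertical axis) for 9 subfamilies (horizontal axis, internal and LTR entry numbers in brackets). Each point is a library, and the 2 libraries of a group are joined. The ESC and pESC points of MMERVK9E_I-int lie between 29.6 and 34.0 points and its E9.5 PGC and E12.5 PGC points between 10.3 and 13.7, while those of RLTR45-int lie below 0.

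Among the entries themselves, 247 of 715 were over 70% in ESC, 250 in pESC, 550 in E9.5 PGC, 69 in E12.5 PGC, 349 in ESC-PGCLC and 232 in pESC-PGCLC. The E9.5 level was the highest of the 6 groups in 631 members. The lowest group was E12.5 PGC in 494 members and ESC or pESC in 179. Such counts over other features are not given here. The means over all repeat entries and over all features were also highest in E9.5 PGC, at 65.1% and 36.4%. The SD over entries was 18.1 points in ESC and 12.9 in E12.5 PGC. Members ranked alike in ESC and pESC, with a Spearman rho of 0.97 over the 715 entries, and less alike in ESC and E9.5 PGC (0.65), E9.5 PGC and E12.5 PGC (0.77) and ESC and ESC-PGCLC (0.75), while the PGC-like groups had 0.92. These values share overlapping entries and libraries of unknown depth and are descriptions.

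The lowest and highest members by mean over the 12 libraries came from MMERVK9C_I-int and RLTR10-int. MMERVK9C_I-int bases 1863 to 2040 and bases 2154 to 2405 were the lowest, between 0.56% and 2.07% and between 0.90% and 2.02% in the 12 libraries. MMERVK9C_I-int bases 2379 to 4749 and RLTR10-int bases 477 to 998 were the highest. The first had 96.6% and 99.1% in ESC, 97.8% and 98.9% in E9.5 PGC and 77.4% and 82.5% in E12.5 PGC, and the second 93.3% and 86.4%, 97.4% and 97.8%, and 81.2% and 82.3%. Both fell from E9.5 to E12.5, by 18.4 and 15.9 points (adjusted p = 4.13e-04 and 3.28e-04, limma).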

How the data were processed

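RRBS libraries of 12 samples were compared. Per the labels and the study's methods, the authors aligned reads with Bismark 0.16.3 (bowtie2) to mm10, kept unique best alignments, and corrected levels for bisulfite non-conversion. The deposited value is a fraction, methylated over all cytosines in CpG sites of a feature, without counts. Some deposited levels are simple ratios, such as 33.3333% in both ESC libraries of ETnERV-int bases 5113 to 6513. The correction would shift such ratios unless the non-conversion rate were 0. Whether the correction was applied to the deposited levels was not tested. Any coverage minimum is not given in the sources used here, so depth is unknown.

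Members and lists were chosen with earlier results of these data known. Features with a level in all libraries of a fit were tested with limma 3.58.1 (R 4.3.3) on log2((level + 0.01)/(1 - level + 0.01)). A feature was called at a Benjamini-Hochberg adjusted p, over all features, under 0.05 and a difference of at least 10 percentage points. ESC and pESC were fitted alone (4 libraries), PGC and PGC-like groups together (8), stem cells with PGC-like groups (8), and ESC against PGC within all 12. The scripts were tested on simulated data. Entries are named as the 3 called members with the largest rise and fall per comparison, the 2 highest and 2 lowest by mean, interaction calls and MMTV-int; the entries of the descriptions by level were named after their values were seen. Alternatives were an offset of 0.1, untransformed levels, 1 fit of all libraries, repeat entries only, a least difference of 20 points, a replicate block and leaving out each library; for mean levels, medians and all entries with a level.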

Additional observations from a re-analysis of the deposited data

Results flagged for a closer look

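The effect of induction differed between the ESC and pESC origins in RLTR44-int bases 816 to 1332 by a test of the difference itself. The interaction, the change from pESC to pESC-PGCLC minus the change from ESC to ESC-PGCLC, was 55.5 points (limma, adjusted p = 0.0279), with a listed level of 0% in each ESC-PGCLC library and of 32.4% or more in the other 10. The call was lost with an offset of 0.1 (adjusted p = 0.49, limma), on untransformed levels (0.54), in a fit of repeat entries only (0.0598) and without 7 of the 8 libraries in turn (0.068 to 0.16), so it is not settled. Groups of 2 libraries are too small for a test of outlying samples.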

How the results depend on the processing

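Of 170 alternatives to the counts of called members, 115 stayed within 1.5 times the count reported. The named entries had 146 calls and 2158 alternatives, with the same direction in all, 1821 still called and 337 no longer called. With a least difference of 20 points, E12.5 PGC against E9.5 PGC had 327 called members, ESC-PGCLC 38 and pESC-PGCLC 84 against E9.5 PGC, ESC-PGCLC 52 and pESC-PGCLC 7 against E12.5 PGC, and ESC 163 against E9.5 PGC and 71 against E12.5 PGC. By construction these are subsets of the calls at 10 points. In 1 fit of all 12 libraries, ESC-PGCLC had 221 and pESC-PGCLC 2 against E12.5 PGC, pESC-PGCLC 1 against ESC-PGCLC and 71 against pESC. pESC-PGCLC against ESC-PGCLC had 21 with an offset of 0.1 and 23 on untransformed levels, and the interaction had 0 with either and 0 among repeat entries only (48, 50 and 28 members at an unadjusted p under 0.05, limma). The cause of these changes was not tested.

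The replicate number as a block gave 67 members for pESC-PGCLC against E12.5 PGC and 0 for pESC-PGCLC against ESC-PGCLC (215 at an unadjusted p under 0.05, limma), and kept the other counts within 1.5 times. With 2 libraries a group the numbers were not shown to pair samples. Over the features with a level in all 12 libraries, deviations of same-numbered replicates from their group means were compared. They correlated at 0.52 between ESC and pESC, 0.18 between E9.5 PGC and ESC-PGCLC and -0.06 to 0.08 elsewhere. Over the members replicate 1 was on average the higher in both stem cell groups, by 8.52 points in ESC and 2.63 in pESC. Whether the stem cell libraries pair by number was not tested.

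Leaving out each library in turn gave 0 to 2 members for pESC against ESC, 581 to 614 for E12.5 PGC against E9.5 PGC, 221 to 258 and 385 to 442 for ESC-PGCLC and pESC-PGCLC against E9.5 PGC, 280 to 350 and 0 to 66 for them against E12.5 PGC, and 0 to 8 for one against the other. It gave 45 to 188 for ESC-PGCLC against ESC, 16 to 84 for pESC-PGCLC against pESC, 0 to 4 for the interaction, 242 to 501 for ESC against E9.5 PGC and 96 to 379 for ESC against E12.5 PGC. A group left with 1 library was assumed to vary like the others.

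The median over members in place of the mean was 65.6% in pESC, 79.1% in E9.5 PGC, 57.8% in E12.5 PGC, 69.8% in ESC-PGCLC and 65.9% in pESC-PGCLC. Over all entries with a level in a library the means were 57.7%, 74.2%, 54.98%, 65.3% and 61.7% in that order. In ESC both alternatives moved by less than the spread of its libraries. Single libraries ranged from 56.0% to 64.5% in ESC, 58.7% to 61.3% in pESC, 75.1% to 75.6% in E9.5 PGC, 55.4% to 56.03% in E12.5 PGC, 66.26% to 66.32% in ESC-PGCLC and 62.3% to 62.7% in pESC-PGCLC. Depth is unknown, so entries with few reads could not be set apart.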
